A study of Mus musculus with 12 samples.

Results

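The genes described here are 39 components of the cardiac sarcomere and its Z-disc, taken by name from the 39331 gene entries of the count table, with the myosin heavy chain genes left aside. They comprise 3 thick filament genes, 9 thin filament genes, 4 genes of titin and the M-band, 16 Z-disc genes, 5 genes of chaperone and assembly factors and 2 genes of ubiquitin ligases of muscle protein turnover. RNA from hearts of C57BL/6N mice aged 9 months was sequenced, with 6 libraries from wild-type (WT) animals and 6 from Lemd2 p.L13R knock-in (KI) animals. LEMD2 is a protein of the inner nuclear membrane, and the knock-in replaces leucine by arginine at amino acid 13 of it. No treatment was given to either group, and the labels state neither zygosity nor sex. The comparison asks what the substitution changes in the heart at this age.

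The sarcomere is the contractile unit of striated muscle, in which thick filaments of myosin pull on thin filaments of actin, tropomyosin and troponin. Titin spans from the Z-disc, where thin filaments of neighbouring sarcomeres are crosslinked, to the M-band, where thick filaments are crosslinked. Mutations in many of these genes cause cardiomyopathy in humans, and several have a second paralog used mainly in skeletal muscle, in the atria or in fetal heart.

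Levels are given as CPM (counts per 1000000 counts) scaled by TMM, a normalization that sets the libraries to a common level over most genes. The total count per library, in units of 1000000, was 38.3 to 44.6 in WT and 27.9 to 42.9 in KI. Mitochondrial genes took 34.0% to 40.4% of all counts in WT and 30.9% to 33.9% in KI. The ventricular cardiomyocyte markers summed to 39915 to 46244 CPM in WT and 37498 to 43348 CPM in KI. Myh6 and Mb had the highest WT means of this list, at 16746 and 9418 CPM. Irx4 and Hey2 were low, at 22.1 to 35.7 and 2.53 to 5.43 CPM over all libraries. Myl2 and Myl3 are on this list and also among the sarcomere genes described here, so the sum is not independent of them. Of the 10 markers of this list, 2 were called lower in KI (Pln and Hey2), beside 4.34% of all genes. Atrial markers summed to 55.7 to 402 CPM in WT and to 214 to 2363 CPM in KI, with 2 of the 6 tested of 9 called higher (Nppa and Dkk3, beside 4.41% of all genes) and Bmp10 under 10 counts in every library. KI 6 stood apart: it had 145 CPM of Myl7, 223 CPM of Myl4 and 52.4 CPM of Sln, where no other library had more than 0.43, 5.31 and 0.20 CPM. Without KI 6 the atrial sum in KI reached 1635.4 CPM, in KI 4, where Nppa alone held 1612 CPM. Nppa lay above the WT mean in 5 of 6 KI libraries, and Myl4 and Dkk3 in all 6. The other tested genes of the list, Stard10, Fgf12 and Nr2f1, each lay below it in 5 of 6. Fibroblast markers summed to 1685 to 2034 CPM in WT and 1884 to 3616 CPM in KI, and reached 2693 CPM in KI without KI 6. Of these 11 markers, 5 were called higher (Col1a1, Col1a2, Col3a1, Mfap5 and Pi16), beside 4.41% of all genes. Gsn and Dcn, with the highest WT means at 946 and 416 CPM, were not called (adjusted p = 0.155 and 0.0703 by edgeR). Skeletal muscle markers summed to 34.7 to 89.4 CPM in WT and 54.8 to 77.1 CPM in KI. Of the 7 tested of 14, 1 was called higher (Myh8, with only 3 to 30 counts per library), beside 4.41% of all genes. Tnnc2, Actn3, Myh1 and Myh2 had under 10 counts in every library. Smooth muscle and pericyte markers summed to 1414 to 1582 CPM in WT and 1264 to 1518 CPM in KI, endothelial markers to 728 to 896 and 714 to 992 CPM, and immune markers to 188 to 345 and 217 to 325 CPM, with no member of these lists called. Within the smooth muscle list, Myh11 was at 116 CPM, Tagln at 79.5 CPM and Cnn1 at 12.4 CPM in KI 6, where no other library had more than 59.7, 38.04 and 3.41 CPM. The part of these marker differences in the results on sarcomere genes was not tested. In bulk heart tissue fewer cells of a type and less RNA per cell cannot be told apart.

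Of the 39 genes, 38 passed the filter on low counts. Synpo2l rose in KI, Cmya5 and Tnni3 fell, and the other 35 tested genes did not pass the threshold of an adjusted p of 0.05 (edgeR quasi-likelihood test, Benjamini-Hochberg adjustment over all 15602 genes tested). These 3 calls are 7.89% of the 38 genes, beside 8.75% of all genes tested, so the share of sarcomere genes called was near the background. Among all genes 4.41% were called higher and 4.34% lower. A further 8 of the 38 had an unadjusted p under 0.05 without passing, which makes 11 with those called. The median log2 fold change was -0.0062 over the 38 genes and 0.0128 over all genes tested. In 26 of the 38 the log2 fold change was smaller than 0.2 in size, as it was in 66.1% of all genes tested. With library totals as the only scaling, the median log2 fold change of all genes was higher by 0.148, so directions are relative to the TMM scaling. Under library totals 14 of the 38 genes, none of them called, went from a log2 fold change below 0 to one above 0: Myl2, Myl3, Actc1, Tnnt2, Tpm1, Tmod1, Ldb3, Myoz2, Pdlim5, Cryab, Bag3, Smyd1, Trim63 and Fbxo32. Called higher with that scaling were 1 thick filament, 2 thin filament, 1 titin and M-band, 5 Z-disc and 1 chaperone gene. Of all 15602 genes tested, 2957 were called higher with it.

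**Figure D1:**
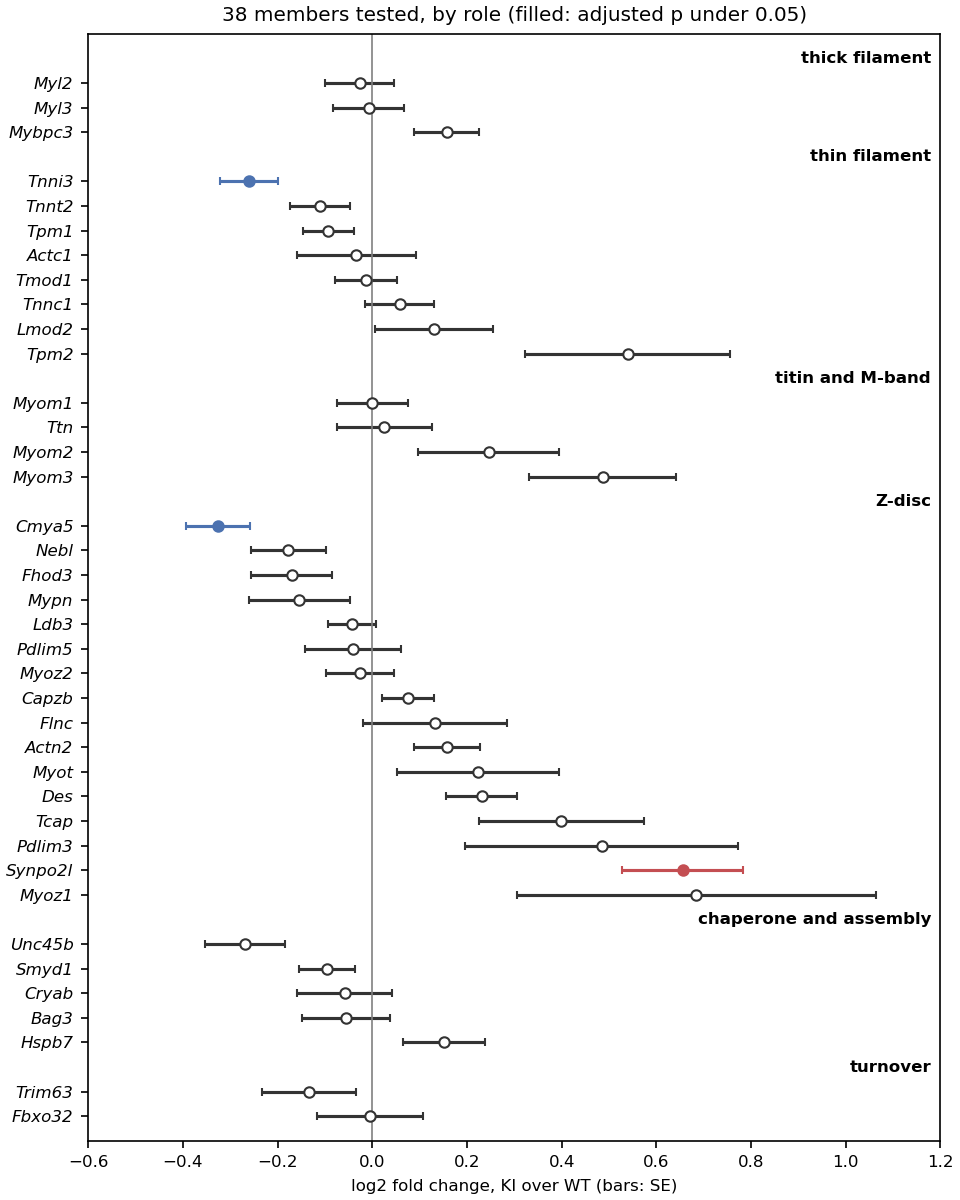
Log2 fold change of KI over WT (x axis) for each of the 38 genes tested (y axis, grouped by role), with bars for the standard error (SE) of the fit. Filled points passed an adjusted p of 0.05: Tnni3 (-0.26) and Cmya5 (-0.33) to the left of 0 and Synpo2l (0.66) to the right.

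The promoters of the 3 called genes are printed below, each reaching from 250 bases before the transcript start to 50 bases after it, as RefSeq gives the start in build GRCm38.p6. The table of promoters held 42 windows for 32 of the 39 genes. All 3 genes lie on the minus strand, and the windows read 5′ to 3′ along the gene. Capitals mark a GATAAG match, which in Tnni3 lies on the opposite strand, or a match to the MEF2 site in Synpo2l. The windows of Cmya5 and of the upstream Synpo2l start are set on the upstream end of the gene span. The Tnni3 window is set on a start inside the gene span, whose upstream end is at 4522718. Its GATAAG match, at base 275 of the window, lies after that start.
Tnni3, chr7:4522479-4522778: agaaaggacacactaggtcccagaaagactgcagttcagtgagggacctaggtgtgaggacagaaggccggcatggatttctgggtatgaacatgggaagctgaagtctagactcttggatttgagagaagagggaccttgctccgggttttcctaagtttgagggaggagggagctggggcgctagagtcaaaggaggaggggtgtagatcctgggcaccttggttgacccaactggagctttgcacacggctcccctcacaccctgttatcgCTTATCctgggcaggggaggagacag
Cmya5, chr13:93144675-93144974: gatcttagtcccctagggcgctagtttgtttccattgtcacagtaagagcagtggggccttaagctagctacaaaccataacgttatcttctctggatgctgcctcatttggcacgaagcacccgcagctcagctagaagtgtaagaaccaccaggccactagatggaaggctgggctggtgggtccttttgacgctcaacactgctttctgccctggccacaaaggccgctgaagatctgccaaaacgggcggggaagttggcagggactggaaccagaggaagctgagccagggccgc
Synpo2l upstream start, chr14:20668305-20668604: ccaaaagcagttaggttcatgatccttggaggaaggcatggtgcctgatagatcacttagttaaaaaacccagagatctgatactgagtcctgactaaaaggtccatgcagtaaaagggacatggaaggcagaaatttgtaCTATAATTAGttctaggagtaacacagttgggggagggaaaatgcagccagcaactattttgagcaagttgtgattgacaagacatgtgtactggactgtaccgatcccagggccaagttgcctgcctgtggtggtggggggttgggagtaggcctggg
Synpo2l downstream start, chr14:20664525-20664824: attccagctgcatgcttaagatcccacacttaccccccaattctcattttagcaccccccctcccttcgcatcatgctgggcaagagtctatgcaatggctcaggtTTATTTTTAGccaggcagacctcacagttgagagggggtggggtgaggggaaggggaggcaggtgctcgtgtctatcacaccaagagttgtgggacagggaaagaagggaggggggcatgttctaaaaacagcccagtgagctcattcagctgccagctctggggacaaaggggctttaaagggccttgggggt

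Both Synpo2l windows held a MEF2 match, and the Cmya5 window held none of the motifs searched on both strands other than an E-box. MEF2 factors and serum response factor, which binds the CArG box, are known regulators of muscle genes. A MEF2 match stood in 14.3% of the 42 windows and in 3.19% of all 32851 promoter windows of the same length. A CArG box stood in 14.3% against 1.63%, and CATTCC, the MCAT element bound by TEAD factors, in 31% against 14.7%. TATAAA stood in 14.3% against 13.6%, GATAAG in 9.52% against 7.44%, and CANNTG, the E-box, which was not capitalised, in 78.6% against 72.3%. No test was made of these shares, and a match describes letters, not binding.

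None of the 3 thick filament genes passed by edgeR with TMM scaling, by DESeq2 or by limma voom. Of the 3, 1 had an unadjusted p under 0.05, and their log2 fold changes lay between -0.03 and 0.16. Mybpc3 encodes cardiac myosin-binding protein C, which sits on the thick filament and tunes crossbridge formation. Its level was 3831 CPM at the lowest, 4312 at the median and 4565 at the highest in WT, and 4273, 4812 and 5189 CPM in KI. All 6 KI libraries lay above the WT mean, and the groups overlapped. Mybpc3 had a log2 fold change of 0.16 (SE 0.07, adjusted p = 0.164 by edgeR). Under scaling by library totals it was called, at 0.31 (adjusted p = 0.00194 by edgeR), and with totals without mitochondrial genes at 0.20 (adjusted p = 0.0339). Myl2, the ventricular regulatory light chain of myosin, ranged from 4521 to 6271 CPM in WT with a median of 5629, and from 5040 to 5833 CPM in KI with a median of 5517. The KI values lay inside the WT range, with a log2 fold change of -0.03 (SE 0.07, adjusted p = 0.864 by edgeR). Myl3, the ventricular essential light chain, had medians of 3961 CPM in WT and 3965 CPM in KI, within 3374 to 4306 and 3444 to 4073 CPM. Per length of the longest coding transcript, Myl2 had the highest value of the 39 genes, at 6259 ± 647 CPM per kilobase in WT and 6145 ± 352 in KI (SD, n = 6 each). The counts cover introns and this length does not, so values per kilobase are not strictly comparable between genes.

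Among the 9 thin filament genes, 1 of 8 tested fell, and it was Tnni3, which encodes cardiac troponin I, the subunit that holds contraction off at low calcium. Tnni3 (Gene ID 21954, GRCm38.p6 chromosome 7, 4518305 to 4522718) had 2493 CPM at the lowest, 2791 at the median and 3033 at the highest in WT, and 2172, 2330 and 2524 CPM in KI. All 6 KI libraries lay below the WT mean, and the groups overlapped because WT 1, the lowest WT library, was below KI 6, the highest KI library. The log2 fold change was -0.26 (SE 0.06, adjusted p = 0.0222 by edgeR). Under scaling by library totals the log2 fold change of Tnni3 was -0.11 (adjusted p = 0.0880 by edgeR). The call was also lost when any of WT 2, WT 3, WT 5, WT 6, KI 3 or KI 4 was left out, with adjusted p values of 0.0507 to 0.0639.

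The other troponin genes showed no difference past the threshold. Tnnt2, cardiac troponin T, which anchors troponin to tropomyosin, ranged from 4952 to 6138 CPM in WT and from 4790 to 5744 CPM in KI, with a log2 fold change of -0.11 (SE 0.06, adjusted p = 0.297 by edgeR). Tnnc1, the calcium-binding troponin C of heart and slow muscle, ranged from 1091 to 1493 and from 1246 to 1506 CPM. Tnni1, the troponin I of fetal heart and slow skeletal muscle, had 2 to 20 counts per library and was too low to be tested.

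Actc1, the cardiac alpha-actin, had 5825 CPM at the lowest, 7711 at the median and 10711 at the highest in WT, and 7117, 7652 and 8216 CPM in KI. The KI values lay inside the WT range, and WT 1 was the highest (log2 fold change -0.03, SE 0.12, adjusted p = 0.903 by edgeR). Tpm1, the main cardiac tropomyosin, had 6466, 7010 and 7820 CPM in WT and 6469, 6579 and 6701 CPM in KI. All 6 KI values lay below the WT mean and inside the WT range, and the log2 fold change was -0.09 (SE 0.05, adjusted p = 0.306 by edgeR). Tpm2, a tropomyosin more typical of skeletal and smooth muscle, had 13.1, 18.3 and 23.3 CPM in WT and 16.6, 24.1 and 45.3 CPM in KI. The groups overlapped, KI 6 was the highest, and the log2 fold change was 0.54 (SE 0.22, adjusted p = 0.132 by edgeR). Without KI 6, the library that also held the most Myh11, Tagln, Cnn1, Myl7 and Myl4, the log2 fold change of Tpm2 was 0.32 (adjusted p = 0.261 by edgeR). Lmod2, which elongates thin filaments, and Tmod1, which caps their pointed ends, had log2 fold changes of 0.13 (adjusted p = 0.547) and -0.01 (adjusted p = 0.925 by edgeR).

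The 4 genes of titin and the M-band had log2 fold changes above 0, of which those of Ttn and Myom1 changed sign under some alternatives, and none passed by edgeR. Myom3 had an unadjusted p under 0.05 and was called by DESeq2 and by limma voom. Ttn, the giant elastic protein that spans from Z-disc to M-band, ranged from 3432 to 4456 CPM in WT with a median of 4233, and from 3493 to 4947 CPM in KI with a median of 4075. The groups overlapped over most of their range, with a log2 fold change of 0.03 (SE 0.10, adjusted p = 0.907 by edgeR). Because its transcript is so long, Ttn held only 38.3 ± 3.92 CPM per kilobase in WT and 39.03 ± 5.84 in KI (SD, n = 6 each), by a length that leaves out introns.

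Myom3, a myomesin found mainly in intermediate-speed skeletal fibres, was low in these hearts. It had 2.62 CPM at the lowest, 3.62 at the median and 5.23 at the highest in WT, and 4.35, 5.16 and 5.99 CPM in KI. All 6 KI libraries lay above the WT mean, and only WT 3 among the WT libraries reached into the KI range. The log2 fold change of Myom3 was 0.49 (SE 0.16, adjusted p = 0.0664 by edgeR), and 0.61 (adjusted p = 0.0249) without WT 3. Myom2, the M-protein of fast muscle and adult heart, had 766 CPM at the lowest, 1419 at the median and 1583 at the highest in WT, and 1318, 1606 and 1917 CPM in KI. WT 1 stood far below the other libraries, the groups overlapped, and the log2 fold change was 0.25 (SE 0.15, adjusted p = 0.321 by edgeR), or 0.13 (adjusted p = 0.425) without WT 1. Myom1, the main myomesin of the M-band, had a log2 fold change of 0.0006 (SE 0.07, adjusted p = 0.997 by edgeR) and ranged from 1187 to 1501 CPM in WT and from 1226 to 1568 CPM in KI.

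Of the 16 Z-disc genes, 1 rose (Synpo2l) and 1 fell (Cmya5), with log2 fold changes over the group from -0.33 to 0.68 and a median of 0.10. These 2 were the only ones of the 38 tested whose WT and KI values did not overlap, as was the case for 4.36% of all genes tested.

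Synpo2l encodes an actin-associated Z-disc protein enriched in heart and skeletal muscle, also called CHAP. Synpo2l (Gene ID 68760, GRCm38.p6 chromosome 14, 20658945 to 20668354) had 114 CPM at the lowest, 132 at the median and 186 at the highest in WT, and 188, 219 and 285 CPM in KI. Every KI library lay above every WT library, although WT 1, the highest of WT, came close to KI 1, the lowest of KI, and KI 4 stood above the others of KI. The log2 fold change was 0.66 (SE 0.13, adjusted p = 0.00918 by edgeR), or 1.58-fold. Leaving out any of the 12 libraries in turn kept it past the threshold, at adjusted p values of 0.00416 to 0.0264. Myoz1, its neighbour on the same strand with 2404 bases between them, had 3 to 26 counts per library.

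Cmya5 encodes myospryn, a very large protein of the Z-disc and costamere that binds desmin and alpha-actinin. Cmya5 (Gene ID 76469, GRCm38.p6 chromosome 13, 93040713 to 93144724) had 927 CPM at the lowest, 996 at the median and 1052 at the highest in WT, and 665, 782 and 910 CPM in KI. Every KI library lay below every WT library, with KI 3 the lowest and KI 1 the nearest to WT. The log2 fold change was -0.33 (SE 0.07, adjusted p = 0.0127 by edgeR), or 0.798-fold. Leaving out any of the 12 libraries in turn kept this call, at adjusted p values of 0.00649 to 0.0367. Under scaling by library totals the log2 fold change of Cmya5 was -0.18 (adjusted p = 0.0248 by edgeR).

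The bracketed names in the titles of KI 3, KI 4 and KI 5 share an age tag that those of KI 1, KI 2 and KI 6 lack, while KI 2 is tagged old and KI 6 new. A pair of numbers is joined in the titles of KI 1 and of KI 2, and whether these libraries pool animals is not stated. No bracketed WT name has an age, old or new tag, and no WT title joins numbers. The tags therefore cannot be told apart from genotype in a comparison with WT. KI 3, KI 4 and KI 5 also had the lowest total counts of all libraries. In the units used above for totals these were 27.9, 34.9 and 31.8, with WT 2 next at 38.3. The part of these totals in the results below was not tested. Without KI 3, KI 4 and KI 5, the log2 fold changes were 0.57 for Synpo2l (adjusted p = 0.0818), -0.27 for Cmya5 (adjusted p = 0.0953) and -0.19 for Tnni3 (adjusted p = 0.244), and 0.563% of all genes tested were called by edgeR. In that fit 0 of the 38 genes passed and 6 had an unadjusted p under 0.05. With KI 3, KI 4 and KI 5 as the only KI libraries they were 0.72 for Synpo2l (adjusted p = 0.0181), -0.40 for Cmya5 (adjusted p = 0.0132) and -0.36 for Tnni3 (adjusted p = 0.0157), with 12.4% of all genes called. Both fits share the 6 WT libraries, and the 3 genes were called over all 6 KI libraries.

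**Figure D2:**
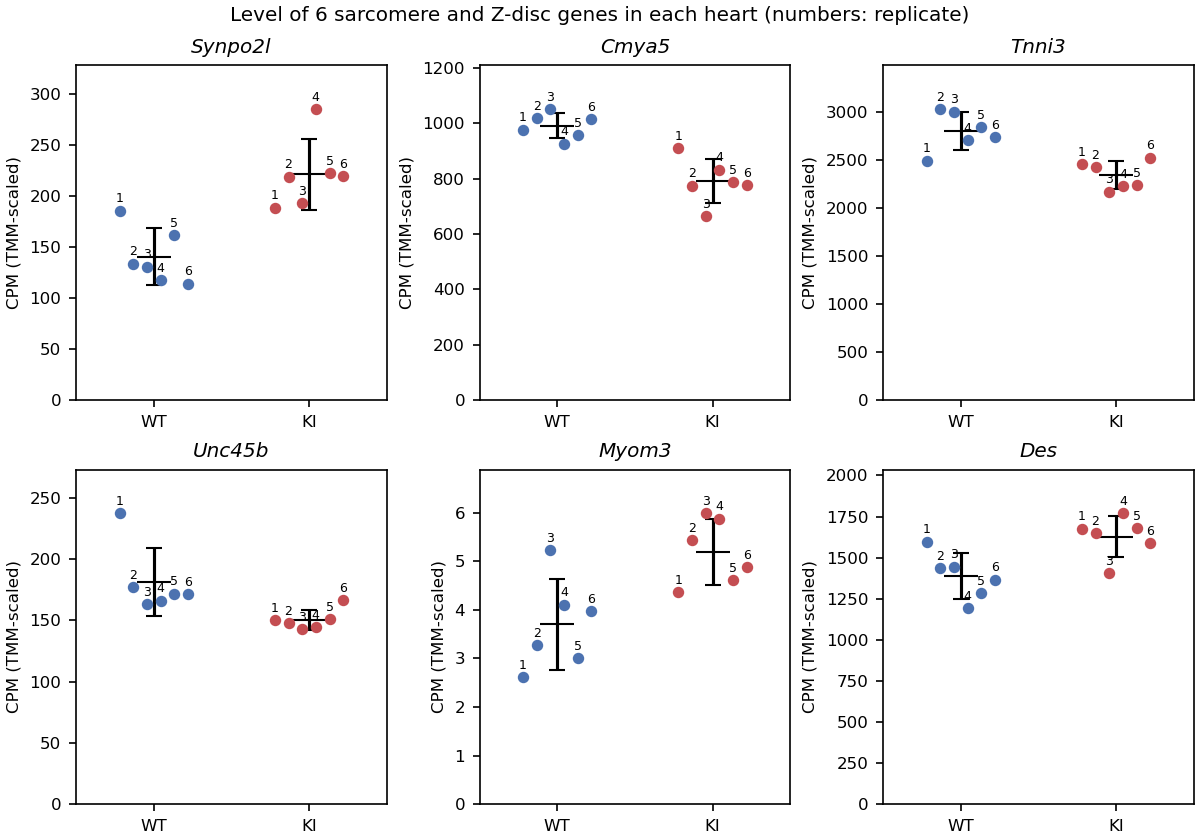
Level in TMM-scaled CPM (y axes, from 0) of 6 genes in each WT and KI library (x axis), with points numbered by replicate and bars for mean and SD. Synpo2l and Cmya5 do not overlap between the groups, Tnni3 overlaps through WT 1 and KI 6, and WT 1 holds the highest Unc45b value at 238 CPM.

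The other 14 Z-disc genes did not pass by edgeR. Of these, Des was called by DESeq2 (adjusted p = 0.0434) and by limma voom (adjusted p = 0.0382), and Tcap by limma voom (adjusted p = 0.0482). Des encodes desmin, the intermediate filament that ties neighbouring Z-discs together. It had 1191 CPM at the lowest, 1401 at the median and 1598 at the highest in WT, and 1404, 1662 and 1771 CPM in KI. All 6 KI libraries lay above the WT mean, and the groups overlapped through WT 1 and KI 3. The log2 fold change of Des was 0.23 (SE 0.07, adjusted p = 0.0685 by edgeR), and it passed without WT 1 (adjusted p = 0.0336) and without KI 3 (adjusted p = 0.0486). Actn2, the alpha-actinin that crosslinks thin filaments in the Z-disc of heart, had 1179 CPM at the lowest, 1309 at the median and 1411 at the highest in WT, and 1247, 1472 and 1696 CPM in KI. Its KI values were above the WT mean in 5 of 6 libraries and overlapped WT, with a log2 fold change of 0.16 (SE 0.07, adjusted p = 0.171 by edgeR).

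Tcap, or telethonin, which joins titin ends at the Z-disc, spread widely in WT, from 599 to 1519 CPM, with WT 1 the lowest and WT 3 the highest, and lay within 1133 to 1363 CPM in KI. For Tcap the log2 fold change was 0.40 (SE 0.17, adjusted p = 0.165 by edgeR), and without WT 3 it passed (adjusted p = 0.0293). Nebl, or nebulette, which binds actin next to the Z-disc, was at 316 to 362 CPM in WT and 258 to 348 CPM in KI (log2 fold change -0.18, SE 0.08, adjusted p = 0.171 by edgeR). Fhod3, a formin that helps assemble thin filaments, ranged from 299 to 408 CPM in WT and from 274 to 362 CPM in KI, and Mypn, myopalladin, from 106 to 181 and from 111 to 138 CPM.

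None of 3 PDZ and LIM domain genes among the 39 passed. Ldb3, also called cypher or ZASP, had a log2 fold change of -0.04 (adjusted p = 0.645), Pdlim5 of -0.04 (adjusted p = 0.848) and Pdlim3 of 0.48 (SE 0.29, adjusted p = 0.309, all by edgeR). Flnc, the muscle filamin, ranged from 324 to 629 CPM in WT, highest in WT 1, and from 379 to 544 CPM in KI. Myot, or myotilin, ranged from 38.9 to 109 and from 73.7 to 99.2 CPM, Capzb, a subunit of the protein that caps barbed ends of actin, from 130 to 156 and from 139 to 161 CPM, and Myoz2, the cardiac calsarcin, from 555 to 687 and from 558 to 701 CPM. Myoz1, the fast-muscle calsarcin, had the largest log2 fold change of the 38 genes, 0.68, but with an SE of 0.38 (adjusted p = 0.275 by edgeR).

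None of the 5 chaperone and assembly genes passed by edgeR. Unc45b had an unadjusted p under 0.05 and was called by DESeq2 and by limma voom. Unc45b, the chaperone that folds the myosin head in striated muscle, had 163 CPM at the lowest, 172 at the median and 238 at the highest in WT, and 143, 149 and 167 CPM in KI. All 6 KI libraries lay below the WT mean, and the groups overlapped through KI 6, the highest of KI. For Unc45b the log2 fold change was -0.27 (SE 0.08, adjusted p = 0.0631 by edgeR), and without WT 1 it was -0.18 (adjusted p = 0.0454), smaller but past the threshold. Smyd1, a muscle methyltransferase that acts in myosin assembly, had 442 to 492 CPM in WT and 399 to 493 CPM in KI.

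Hspb7, a small heat shock protein of heart, had 1867 CPM at the lowest, 2245 at the median and 2650 at the highest in WT, and 2225, 2580 and 2855 CPM in KI. The groups overlapped, and the log2 fold change was 0.15 (SE 0.09, adjusted p = 0.288 by edgeR). Cryab, alpha-B crystallin, which protects desmin and titin, had 907, 1140 and 1488 CPM in WT and 966, 1131 and 1177 CPM in KI. WT 1 was the highest, KI 3 stood below the other KI libraries, and the log2 fold change was -0.06 (SE 0.10, adjusted p = 0.762 by edgeR). Bag3, the co-chaperone that clears damaged Z-disc proteins, ranged from 137 to 210 CPM in WT and from 144 to 187 CPM in KI.

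Neither of the 2 turnover genes passed by edgeR, DESeq2 or limma voom, and 0 had an unadjusted p under 0.05. Trim63, or MuRF1, a ubiquitin ligase of the sarcomere, ranged from 144 to 206 CPM in WT with a median of 170, and from 135 to 195 CPM in KI with a median of 148 (log2 fold change -0.13, SE 0.10, adjusted p = 0.426 by edgeR). Fbxo32, or atrogin-1, the substrate receptor of a ubiquitin ligase induced in muscle atrophy, ranged from 134 to 208 CPM in WT with a median of 160, and from 146 to 208 CPM in KI with a median of 163. The groups overlapped over most of their range in both genes, and the log2 fold change of Fbxo32 was -0.01 (SE 0.11, adjusted p = 0.984 by edgeR).

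The summed level of the 39 genes differed by less than the spread between libraries, at 59190 ± 3053 CPM in WT and 59134 ± 3077 CPM in KI (SD, n = 6 each). As a share of all counts in the library they took 5.30% to 5.96% in WT and 6.01% to 6.50% in KI, so the groups did not overlap. As a share of the counts without mitochondrial genes the ranges were 8.55% to 9.17% and 8.79% to 9.50%, and they overlapped, with medians of 9.04% in WT and 9.25% in KI. The mitochondrial share was lower in every KI library than in every WT library, and its part in the higher share of all counts was not tested.

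**Figure D3:**
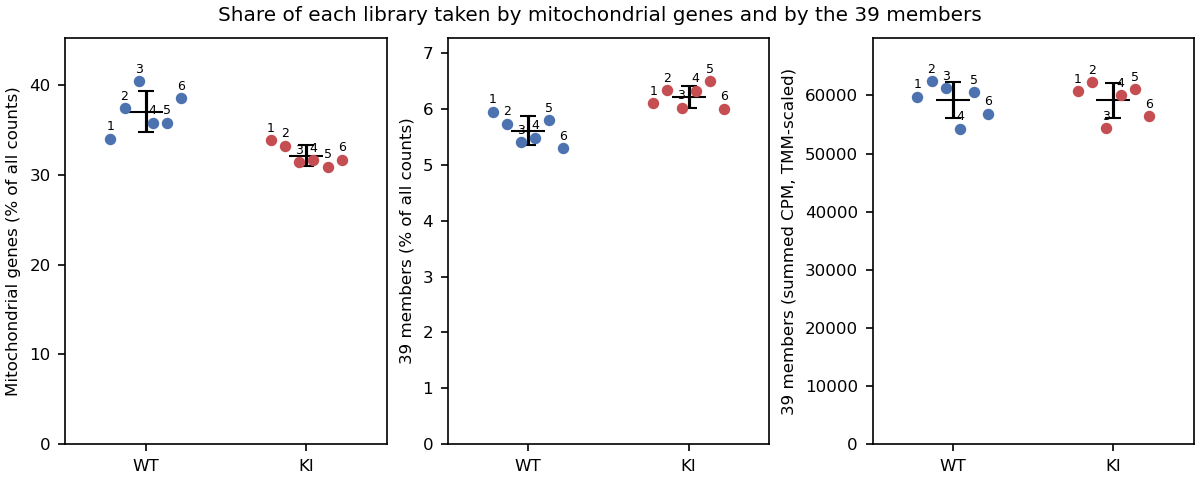
Percent of all counts from mitochondrial genes, percent of all counts from the 39 genes, and their summed TMM-scaled CPM (y axes, from 0) in each WT and KI library (x axis), with mean and SD. The mitochondrial share is 30.9% to 33.9% in KI against 34.0% to 40.4% in WT, and the summed level overlaps between the groups.

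Among WT libraries, WT 1 held the highest value in 16 of the 38 tested genes (42.1%, beside 18.7% of all genes) and the lowest in 11, and WT 4 the lowest in 16 (42.1%, beside 20.9%). Among KI libraries, KI 3 held the lowest value in 18 genes (47.4%, beside 16% of all genes), and KI 1 the highest in 12. The coefficient of variation between libraries had a median of 11.8% in WT and 8.83% in KI over the 38 genes, and of 11.9% and 11.6% over all genes tested. Among genes with a mean of 100 CPM or more, it was 10.3% and 8.35% over 33 of the sarcomere genes and 7.94% and 7.48% over 1098 genes in all. The genes in which WT 1 was highest were mostly Z-disc and chaperone genes, such as Flnc, Pdlim5, Synpo2l, Cryab and Unc45b.

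**Figure D4:**
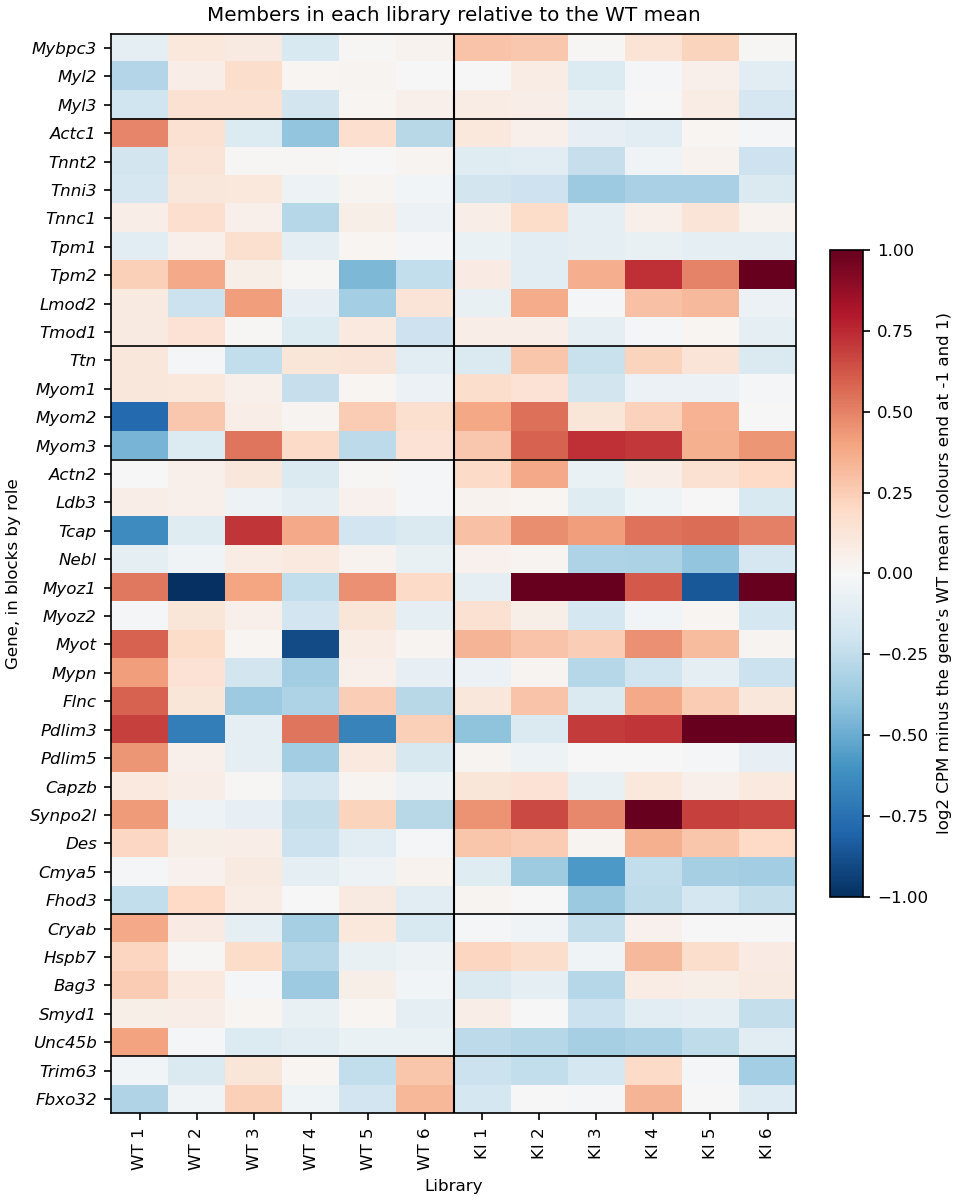
Log2 CPM minus the mean of the WT libraries (colour) for the 38 tested genes (rows, in blocks by role) in the 12 libraries (columns). WT 1 is high in many Z-disc and chaperone genes and low in Myom2 and Tcap, and in KI Synpo2l is high in all 6 libraries while Cmya5, Tnni3 and Unc45b are low in all 6.

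A ratio of 2 genes within a library depends on the scaling only through the prior count of 0.5, a small count added to each gene. The prior count weighs most where counts are low, as in Tnni1 and Myoz1. In this way 4 pairs of paralogs were compared by an exact permutation test, two-sided and adjusted over the 4 ratios. With 6 libraries per group the smallest p this test can give is 0.00216. The log2 ratio of Tnni1 to Tnni3 was -15.5 at the lowest, -14.3 at the median and -13.8 at the highest in WT, and -13.9, -12.9 and -12.2 in KI. In 5 of 6 KI libraries it lay above the highest WT value, and the mean was 1.44 higher (exact permutation p = 0.00649, adjusted 0.0216), with Tnni1 at no more than 20 counts in any library. Tnni1 reached at most 0.453 CPM in any library, far below Tnni3 in both groups.

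The log2 ratio of Acta1, the skeletal alpha-actin also expressed in fetal heart, to Actc1 was -5.66 at the lowest, -4.67 at the median and -3.51 at the highest in WT, and -3.92, -3.34 and -2.76 in KI. WT 1 held the highest WT value, 3 of 6 KI libraries lay above it, and the mean was 1.27 higher in KI (exact permutation p = 0.0108, adjusted 0.0216). Acta1 itself had a log2 fold change of 1.05 (SE 0.38, adjusted p = 0.1004 by edgeR), and 1.54 (adjusted p = 0.00811) without WT 1. The actin paralogs are alike in sequence, and reads that align to both were split between them.

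The log2 ratio of Tpm2 to Tpm1 was -9.08, -8.61 and -8.26 in WT and -8.60, -8.09 and -7.17 in KI. Of the KI libraries, 4 of 6 lay above the highest WT value, and the mean was 0.57 higher (exact permutation p = 0.0346, adjusted 0.0462). This call did not hold when any of WT 3, WT 4, WT 5, WT 6, KI 3, KI 4, KI 5 or KI 6 was left out, with adjusted values of 0.0628 to 0.104, and without KI 6, the library high in smooth muscle and atrial genes, the difference was 0.40. The log2 ratio of Myoz1 to Myoz2 was -12.8, -11.2 and -10.9 in WT and -12.3, -10.6 and -9.96 in KI, a difference of 0.60 with overlapping groups (exact permutation p = 0.238, adjusted 0.238).

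**Figure D5:**
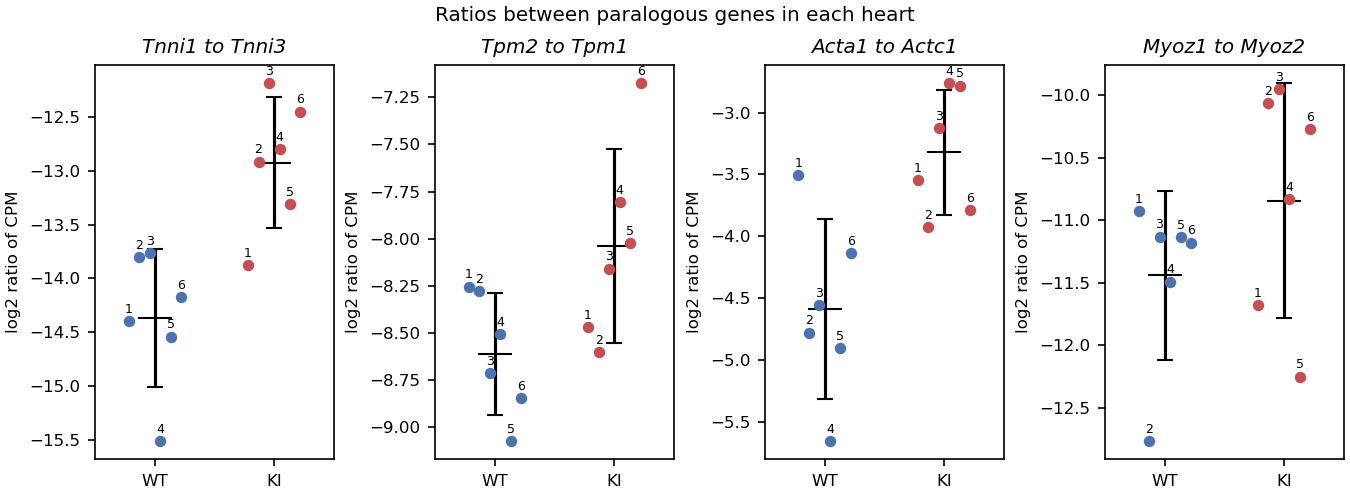
Log2 ratio of the levels of 2 paralogs (y axes, not starting at 0) in each WT and KI library (x axis), with points numbered by replicate and bars for mean and SD. In 5 of 6 KI libraries the Tnni1 to Tnni3 ratio is above the WT range, as are 4 of 6 for Tpm2 to Tpm1, 3 of 6 for Acta1 to Actc1 and 4 of 6 for Myoz1 to Myoz2.

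Beside the 39 genes, 65 of 71 further genes of the sarcomere, its chaperones and its turnover were tested, of which 5 rose and 2 fell. These 7 are 10.8% of the 65, beside 8.75% of all genes tested, and the median log2 fold change was 0.04. Ankrd1, a stress-responsive protein that binds titin in the I-band, had 1195 CPM at the lowest, 1776 at the median and 2703 at the highest in WT, and 2771, 3232 and 4483 CPM in KI. Every KI library lay above every WT library, and the log2 fold change was 0.90 (SE 0.17, adjusted p = 0.00833 by edgeR). Neb, or nebulin, the thin filament ruler of skeletal muscle, had 4.95, 7.88 and 12.3 CPM in WT and 10.1, 17.7 and 27.1 CPM in KI. The groups overlapped, all 6 KI libraries lay above the WT mean, and the log2 fold change was 1.14 (SE 0.27, adjusted p = 0.0206 by edgeR).

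Tpm3, the slow-muscle and cytoskeletal tropomyosin gene, rose from a median of 39.5 CPM (36.1 to 42.8) in WT to 47.8 CPM (43.8 to 49.4) in KI, with a log2 fold change of 0.27 (SE 0.05, adjusted p = 0.00802 by edgeR). Actn1, the alpha-actinin of nonmuscle cells and smooth muscle, rose from a median of 23.2 CPM (20.4 to 23.8) to 29.7 CPM (24.4 to 43.7), with a log2 fold change of 0.48 (SE 0.11, adjusted p = 0.0189 by edgeR). Pdlim1, a PDZ and LIM domain protein that binds alpha-actinin, rose from a median of 46.4 CPM (40.3 to 54.2) to 59.7 CPM (55.0 to 66.5), with a log2 fold change of 0.35 (SE 0.08, adjusted p = 0.0188 by edgeR). In these 3 genes the groups did not overlap.

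Kbtbd13, a Kelch protein of striated muscle, fell from a median of 2.10 CPM (1.59 to 2.67) to 1.24 CPM (0.898 to 1.66), with overlapping groups and a log2 fold change of -0.72 (SE 0.17, adjusted p = 0.0234 by edgeR). Tmod4, a skeletal muscle tropomodulin, fell from a median of 19.5 CPM (18.7 to 21.5) to 15.7 CPM (12.01 to 18.02), with a log2 fold change of -0.36 (SE 0.09, adjusted p = 0.0226 by edgeR). Its value is uncertain because Vps72 overlaps it on the same strand with 87% of its count. None of the 39 genes overlaps another gene on its strand. Without KI 3, KI 4 and KI 5 0 of the 65 genes passed by edgeR and 11 had an unadjusted p under 0.05, and without WT 1 there were 9 that rose. Of all genes tested, 0.563% were called in the first of these fits and 8.21% in the other.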

How the data were processed

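RNA from heart was made into 12 libraries with a strand-specific kit for messenger RNA, per the labels' protocols. Reads were trimmed with cutadapt 2.5, aligned with STAR 2.7.2b and counted with featureCounts 1.6.4, per the submitters' processing notes. The authors deposited expected counts per gene, not normalized. Reverse-strand reads were counted over whole gene spans with their introns, per the file headers, from a RefSeq annotation of GRCm38.p6, and reads with several alignments or several genes were split into fractions.

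The deposited counts were rounded to whole numbers, filtered with filterByExpr of edgeR 4.0.16 (minimum count 10, minimum total 15), scaled by TMM and compared between KI and WT with its quasi-likelihood test and no covariate (R 4.3.3). The p values were adjusted by Benjamini-Hochberg over the 15602 genes tested, with a threshold of 0.05, and an SE is the log2 fold change over the root of the F statistic. Ratios of paralogs used log2 of CPM with a prior count of 0.5. Levels per kilobase used the longest coding transcript of GENCODE M21, without the introns that the counts cover. Promoters came from RefSeq. The fit was tested on simulated data.

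The genes and lists were chosen with earlier results of these data known. Genes described in full are those past the threshold and, in each role, the 2 with the smallest p and the 2 most abundant. Of the further sarcomere genes, up to 8 past the threshold and those of the ratios are described. No label states that each library is a separate animal, so p values measure the spread between these libraries, which may be technical. Alternatives were RLE size factors, library totals with and without mitochondrial genes, other filters, DESeq2 1.42.0, limma 3.58.1 voom, a block on the replicate number and libraries left out. For the ratios a prior count of 2 was another. Figures were drawn with matplotlib 3.10.9.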

Additional observations from a re-analysis of the deposited data

Results flagged for a closer look

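In groups of 6 libraries, a library was singled out where its gap to the nearest other library was large against the range of its group (Dixon's test at 95%). Of 102 group values tested this way, 8 were singled out, where chance gives about 1 in 20.

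In WT 1, Myom2 was low at 766 CPM, with the next library at 1337, while Unc45b was high at 238 CPM, with the next at 177, and Acta1 was high at 943 CPM, with the next at 360. In KI 4, Synpo2l was high at 285 CPM, with the next at 222, and Fbxo32 was high at 208 CPM, with the next at 165. In KI 3, Cryab was low at 966 CPM, with the next at 1116. In KI 6, Unc45b was high at 167 CPM, with the next at 151. In WT 2, the log2 ratio of Myoz1 to Myoz2 was low at -12.8, with the next at -11.5.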

How the results depend on the processing

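Of the 38 sarcomere genes tested, the number called higher was 1, and it was 10 with library totals, 4 with totals without mitochondrial genes, 3 with DESeq2, 4 with voom, 2 with WT 1 and KI 6 left out together (chosen after seeing the data) and 0 without KI 3, KI 4 and KI 5. With single libraries left out it ranged from 1 to 3 (2 without WT 1 or KI 3, 3 without WT 3). The number called lower was 2, and it was 1 with library totals, 0 without KI 3, KI 4 and KI 5, and 1 to 3 with single libraries left out (1 without WT 2, WT 3, WT 5, WT 6, KI 3 or KI 4). Of the further 65 genes, 5 were higher, and 14 with library totals, 0 without KI 3, KI 4 and KI 5, 9 with WT 1 and KI 6 left out, and 5 to 9 with single libraries left out (9 without WT 1). Of them 2 were lower, and 1 with library totals, 0 without KI 3, KI 4 and KI 5, 1 with WT 1 and KI 6 left out, and 1 to 3 with single libraries left out (1 without WT 2, KI 4 or KI 5). Over all genes tested, 688 were called higher and 677 lower, and 2957 and 191 with library totals. The share of all genes called was 8.75%, and 20.2% with library totals, 9.04% with totals without mitochondrial genes, 13.1% with DESeq2 and 14.6% with voom. It was 6.77% with WT 1 and KI 6 left out, 0.563% without KI 3, KI 4 and KI 5, and 4.69% to 9.78% with single libraries left out.

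Replicate numbers do not pair the libraries: deviations of same-numbered libraries correlated at -0.278 to 0.0354, with 0 of 6 best matched to their own number. A block on the number left 2.77% of all genes tested called by edgeR, beside 8.75% without it. With a block on the number, 2 sarcomere genes were called higher (Myom3 and Synpo2l) and 0 lower by edgeR (3 lower at an unadjusted p under 0.05), of the further genes 2 higher and 0 lower (4 lower at an unadjusted p under 0.05), and the ratios had adjusted p values of 0.125 (Tnni1 to Tnni3, 1.44), 0.167 (Tpm2 to Tpm1, 0.57) and 0.125 (Acta1 to Actc1, 1.27) by exact permutation within the 6 numbers, where the smallest possible p before adjustment is 0.03125. Tnni1 to Tnni3 was at that floor, with all 6 differences above 0, and a lone ratio there adjusts to 0.125, so its miss says nothing of stability. Without KI 3, KI 4 and KI 5 these ratios differed by 1.29, 0.53 and 0.84 and missed the threshold, and with WT 1 and KI 6 left out Tpm2 to Tpm1 differed by 0.47. With single libraries left out Tpm2 to Tpm1 differed by 0.40 to 0.69.

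Among log2 fold changes of the 26 genes described in full, 540 values under alternatives had the same direction and side of the threshold, 31 lost the call, 26 gained one and 27 changed sign, none of which was past the threshold. With library totals the changed signs among these 26 were Fbxo32 0.15, Myl2 0.13, Actc1 0.11, Cryab 0.087, Tpm1 0.060 and Trim63 0.018, and without mitochondrial genes Fbxo32 0.036, Myl2 0.014 and Actc1 0.010. Fbxo32 also turned with the CPM filter (0.0035), voom (0.011), the block (0.0028) and KI 3, KI 4 and KI 5 alone (0.079). Actc1 turned without KI 3, KI 4 and KI 5 (0.013) and without WT 1 and KI 6 (0.082), as Cryab did in the latter (0.020). With single libraries left out the ranges were -0.081 to 0.062 for Fbxo32, -0.11 to 0.077 for Actc1, -0.030 to 0.072 for Ttn, -0.12 to 0.026 for Cryab and -0.081 to 0.012 for Myl2. The causes were not tested. Depth limits what can be said of Tnni1 and Myoz1, at no more than 26 counts per library.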
